A study of Mus musculus with 6 samples.

Results

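The genes described here are those of cholesterol synthesis, uptake and efflux, a list of 29 genes taken by symbol from the 29097 genes counted in neutrophils of mouse peripheral blood (PB). The list holds 17 enzymes of the synthesis pathway, 7 of the mevalonate arm and 10 of the sterol arm, and 12 genes that regulate, export, store or move cholesterol: 5 of the sterol regulatory element-binding protein (SREBP) pathway, 2 liver X receptors (LXR), 2 efflux transporters, 1 esterifying enzyme and 2 proteins of lysosomal export. CD45+CD11b+Ly6G+ cells were sorted from the blood of 8-week-old male C57BL/6 wild-type mice, and 3 Smart-seq2 libraries were made per group, each from a pool of 5 mice. Control mice (Ctrl) carried no ligature, and mice with ligature-induced periodontitis (LIP, named Lig in the labels) carried silk ligatures around the second molars of both jaws on both sides for 14 d. No mouse carried a transgene or a deletion, and no drug was named for either group. Pooling leaves the spread between single mice unseen, and p-values measure the spread between the libraries. The comparison asks how these transcripts differed between circulating neutrophils of mice with and without local oral inflammation.

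Cells build cholesterol from acetyl-CoA, first through mevalonate to farnesyl diphosphate and then through squalene and lanosterol to cholesterol. When sterols in the endoplasmic reticulum are low, SCAP carries SREBP2 to the Golgi, where it is cut so that its active part enters the nucleus and switches on the synthesis enzymes, and INSIG proteins hold this complex back when sterols are high. LXR are nuclear receptors that respond to oxysterols and switch on the export pumps, and excess cholesterol can also be esterified and stored in droplets. In leukocytes, membrane cholesterol bears on migration and signalling.

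Of the 29 genes, 24 had a mean FPKM (fragments scaled to gene length and library total) of at least 1 and were tested. After TMM normalization, in edgeR's quasi-likelihood test with a threshold of 0.05 on the adjusted p, 9 of the 24 passed, 4 higher and 5 lower in LIP. Over all 10440 genes tested, 53.6% passed, 26.5% higher and 27.2% lower, so the share among the cholesterol genes lay below that of the whole table. Srebf2 and Scap of the SREBP pathway, the mevalonate enzymes Acat2 and Fdps, and the efflux pump Abca1 were lower, whereas the sterol enzymes Msmo1 and Sc5d, the efflux transporter Abcg1 and the esterifying enzyme Soat1 were higher. The libraries of the groups did not overlap for 11 of the 24, with 6 above and 5 below in LIP, beside 63.4% of all genes tested. The median log2 fold change was 0.10 over the 24 genes and -0.09 over all genes tested.

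After TMM, the enzymes of the synthesis pathway did not all move in the same direction, whereas scaling on neutrophil genes placed all 13 tested lower. Of its 17 enzymes, 13 were tested. Beside 26.5% higher and 27.2% lower over all genes tested, 2 were higher, 2 lower and 9 did not pass, with a median log2 fold change of 0.07. Both that fell belong to the mevalonate arm (0 higher and 2 lower of 6 tested, median -0.18), and both that rose belong to the sterol arm (2 higher and 0 lower of 7 tested, median 0.14). The other 11 genes tested gave 2 higher and 3 lower, with a median of 0.13. The split between the arms depends on the filter and the threshold. Sqle of the sterol arm narrowly missed a call as lower (log2 fold change -1.07, edgeR adjusted p = 0.0535). With no filter on low genes, the untested sterol genes Lss, Hsd17b7 and Dhcr7 had estimates of -1.12, -0.99 and -0.42, and Mvk of the mevalonate arm 0.29. None of these passed, and the median of the synthesis enzymes was then -0.30, beside -0.25 over all genes. Whether the arms differ from each other was not tested.

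**Figure D1:**
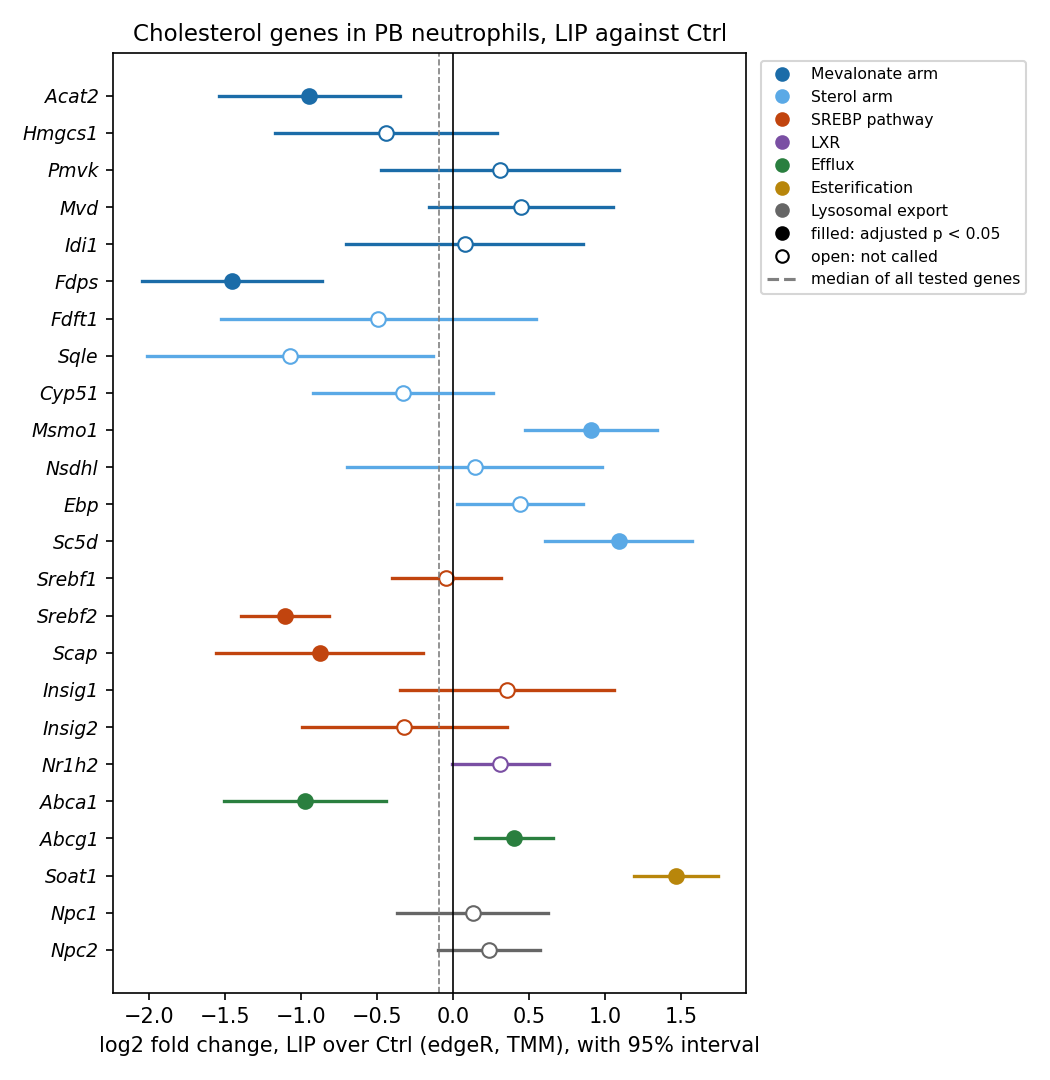
Log2 fold change (x axis, LIP over Ctrl, edgeR after TMM) of the 24 cholesterol genes tested, in order of their roles (y axis). Points are estimates from 3 libraries a group, lines are 95% intervals, filled points passed the adjusted p threshold of 0.05, and the dashed line is the median of all genes tested, -0.09. The estimates run from -1.45 for Fdps to 1.46 for Soat1. With the libraries scaled on neutrophil genes instead, all 24 estimates lie below 0.

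These directions are relative to how the libraries were scaled, because the sorted cells of the groups differed in much else. Total counts lay between 52186555 and 57262379 per library, and haemoglobin genes took 14.6% to 15.02% of them in Ctrl and 1.55% to 1.61% in LIP. All 21 mature neutrophil markers were higher in LIP (summed CPM, that is counts scaled to a common library total after TMM, from 17135 to 18824 in Ctrl and from 65036 to 70060 in LIP). All 13 B cell markers were lower (7575 to 8082 in Ctrl, 1361 to 1505 in LIP). All 13 T cell markers tested were lower too (1038 to 1211 in Ctrl, 236 to 271 in LIP, sums that also hold Themis, not tested). So were all 10 erythroid markers tested (129797 to 138152 in Ctrl, 17589 to 18330 in LIP). All 10 monocyte markers (1364 to 1698 in Ctrl, 2672 to 2867 in LIP) and all 7 platelet markers (929 to 1152 in Ctrl, 2388 to 2866 in LIP) were higher. Of the other markers tested, 4 of 7 of immature neutrophils, 3 of 7 of NK cells and 1 of 5 of eosinophils and basophils were higher, and none was lower. No marker of the first 6 lists found in the table was at 0 in any library. Their part in the differences of the cholesterol genes was not tested, and in sorted pools fewer cells of a type and less RNA per cell cannot be told apart.

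Scaling on the 21 neutrophil markers moved the median of all genes to -1.98 and placed all 24 cholesterol genes lower in LIP, the 4 called higher above included. Scaling on library totals alone moved the median to -0.42, with 3 of the 24 higher and 6 lower. Relative to the median of all genes, each of the 9 genes that passed kept its sign in every fit that held it, also with each library left out. Fdps, Msmo1, Scap and Abca1 were not in the fit with a mean FPKM of at least 5. Subtracting the median removes most of any scaling of whole libraries, so the agreement among scalings follows from the subtraction. The log2 fold change of Soat1 above that median lay between 1.31 and 1.75, that of Srebf2 between -1.23 and -0.82, and that of Abcg1 between 0.27 and 0.69. Directions below are those after TMM.

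**Figure D2:**
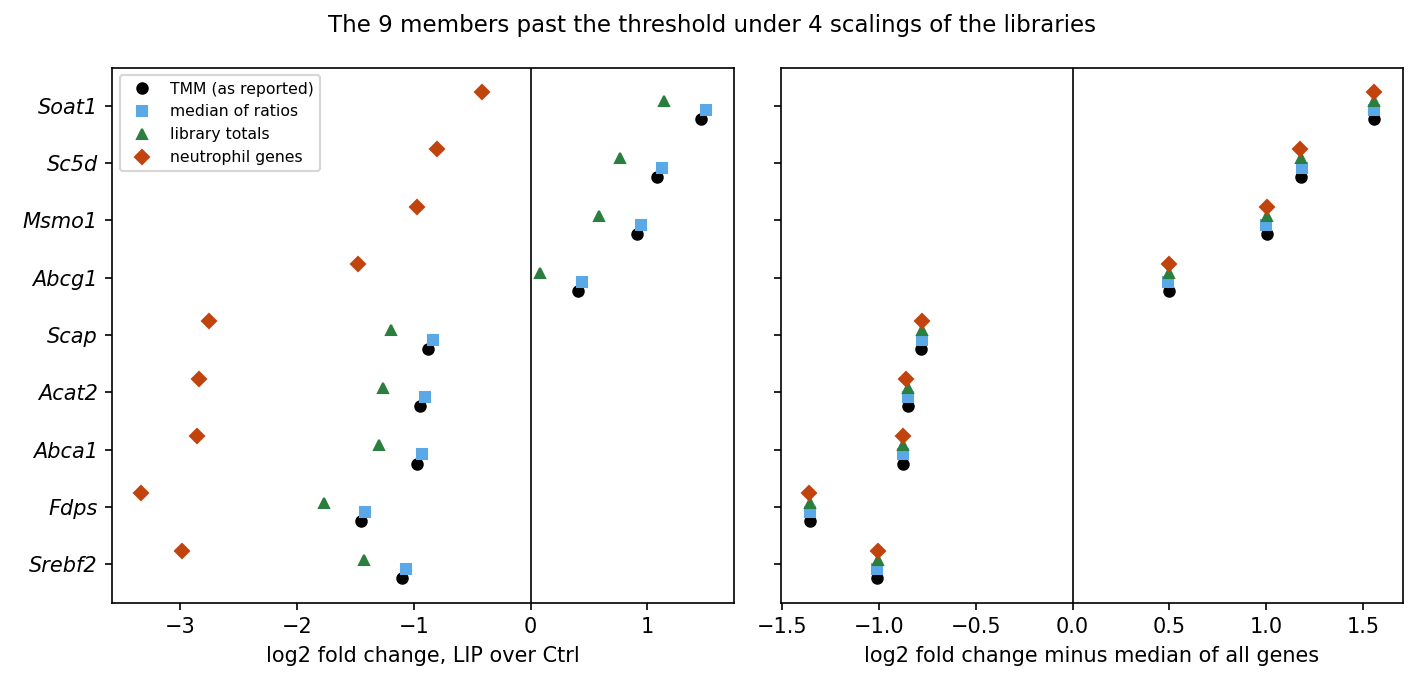
Log2 fold change (x axes, LIP over Ctrl) of the 9 cholesterol genes that passed the threshold, under TMM, median-of-ratios factors, library totals and scaling on neutrophil genes (symbols). On the left, Soat1, Sc5d, Msmo1 and Abcg1 lie above 0 under 3 scalings and below 0 when libraries are scaled on neutrophil genes. On the right, with the median of all genes in the same fit subtracted, the 4 symbols of each gene nearly coincide. This follows from the subtraction, which removes most of any scaling of whole libraries.

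Srebf2, which encodes SREBP2, the main activator of the synthesis enzymes (chr15:82147181-82205379, plus strand, GRCm38), fell in LIP. Its normalized counts were 182, 213 and 198 CPM in the Ctrl libraries and 78.3, 95.8 and 101 CPM in the LIP libraries. Every LIP library was below every Ctrl library, by a wide margin. The means were 197.5 ± 15.5 and 91.8 ± 12.04 CPM (SD, n = 3 each). The log2 fold change was -1.10 (SE 0.129, adjusted p = 4.92e-05), and it rests on 3936 to 12756 reads per library. On the scale per gene length its mean FPKM of 19.5 placed it above 80.7% of the genes tested.

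Scap, which encodes the escort of SREBP to the Golgi (chr9:110333288-110378776, plus strand), had 27.95, 19.1 and 27.3 CPM in Ctrl and 10.05, 10.1 and 20.4 CPM in LIP. The highest LIP library lay above the lowest Ctrl library, so the groups overlapped. Its log2 fold change was -0.88 (SE 0.307, adjusted p = 0.0334). The call was lost in 5 of 15 alternatives: without Ctrl replicate 1, Ctrl replicate 3, LIP replicate 1 or LIP replicate 2 the adjusted p lay between 0.0835 and 0.107, and with no filter on low genes it was 0.129.

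The other 3 genes of the SREBP pathway did not pass the test. Srebf1, which encodes SREBP1, the paralog mainly tied to fatty acid synthesis, had 47.7, 38.8 and 49.0 CPM in Ctrl and 47.8, 37.1 and 46.5 CPM in LIP. The groups covered nearly the same range, and the log2 fold change of -0.04 had a 95% interval from -0.40 to 0.32. Insig1, an anchor of the SCAP complex that is itself a known SREBP target, had 9.42, 7.63 and 8.48 CPM in Ctrl and 14.9, 7.12 and 10.6 CPM in LIP, with an interval from -0.35 to 1.06. Insig2, the anchor that does not depend on SREBP in the same way, had 9.10, 8.36 and 11.4 CPM in Ctrl and 5.55, 9.04 and 8.56 CPM in LIP, with an interval from -0.99 to 0.35. Libraries of the groups overlapped for both INSIG genes, and these intervals leave room for changes in either direction. Within each library, the ratio of Srebf2 to Srebf1 FPKM was 2.997, 4.31 and 3.17 in Ctrl and 1.29, 2.03 and 1.71 in LIP. Thus Srebf2 exceeded Srebf1 per gene length in all 6 libraries, and by less in each LIP library than in any Ctrl library. Srebf1 overlaps Rai1 on the other strand by 109 bases, and the use of strand in counting is not given in the sources used here.

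**Figure D3:**
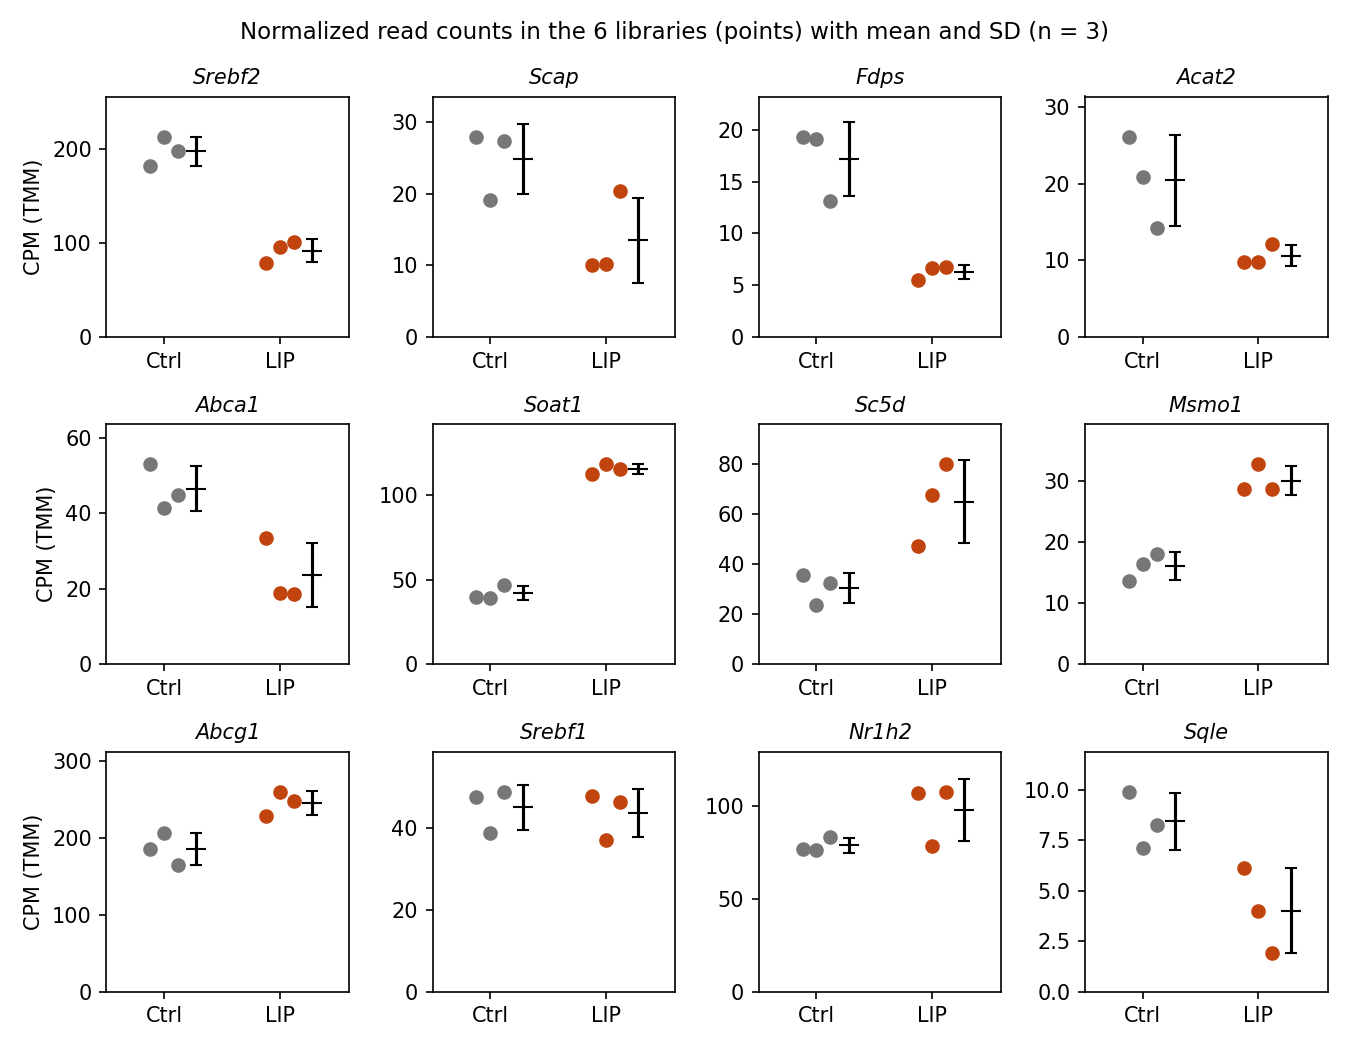
Normalized read counts (y axes, CPM after TMM, starting at 0) of 12 cholesterol genes in the Ctrl and LIP libraries. Points are libraries, and horizontal and vertical bars are the mean and SD (n = 3). The LIP points of Srebf2, Fdps, Acat2, Abca1 and Sqle lie below all Ctrl points, those of Soat1, Sc5d, Msmo1 and Abcg1 lie above, and those of Scap, Srebf1 and Nr1h2 overlap with Ctrl. Scaled on neutrophil genes, all 12 would be lower in LIP.

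Promoter windows ran from 250 bases before to 50 bases after a transcription start. They were taken from RefSeq (GRCm38.p6) for 24 of the 29 genes, in 33 windows. Fdps, Fdft1, Sqle, Abcg1 and Npc1 had no window in the set searched, which does not show that RefSeq holds none for them. Both strands were searched for CCAAT, the box bound by NF-Y, which works beside SREBP at many sterol genes, and for TCACNCCAC, a core of the sterol regulatory element, together with its shorter form TCACCCCA, which was added after the windows were seen and overlaps the first. CCAAT was present for 13 of 14 synthesis enzymes with a window (all but Acat2) and for 6 of 10 other members, against 41.1% of the 27025 genes with a window and 37.4% of all 32851 windows. The longer core occurred in 1 member, Hmgcs1, and in 1.24% of all windows, and the shorter form in 2 members, Hmgcs1 and Srebf2, and in 1.56% of all windows. Among genes that passed the test, CCAAT was found in all 3 with a window that were higher (Soat1, Sc5d and Msmo1) and in 1 of 4 that were lower (Srebf2, not Acat2, Scap or Abca1). A match describes letters in the window and shows no binding. The window of Hmgcs1 is shown as the one that holds the longer core, and that of Srebf2 as holding only the shorter form. Those of Msmo1, Sc5d and Soat1 are shown as genes that rose. Each is written 5′ to 3′ on the gene's strand, with CCAAT or its reverse complement and the longer core or its shorter form in capitals. Srebf2 is at chr15:82147019-82147318 (plus), Hmgcs1 at chr13:119690101-119690400 (plus), Msmo1 at chr8:64733529-64733828 (minus), Sc5d at chr9:42264251-42264550 (minus) and Soat1 at chr1:156474279-156474578 (minus).
Srebf2: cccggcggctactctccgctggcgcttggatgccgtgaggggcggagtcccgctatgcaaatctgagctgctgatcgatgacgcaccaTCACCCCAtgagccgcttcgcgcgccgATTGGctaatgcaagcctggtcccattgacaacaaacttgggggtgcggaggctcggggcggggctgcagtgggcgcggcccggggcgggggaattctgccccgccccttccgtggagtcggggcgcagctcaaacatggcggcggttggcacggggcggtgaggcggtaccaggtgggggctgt
Hmgcs1: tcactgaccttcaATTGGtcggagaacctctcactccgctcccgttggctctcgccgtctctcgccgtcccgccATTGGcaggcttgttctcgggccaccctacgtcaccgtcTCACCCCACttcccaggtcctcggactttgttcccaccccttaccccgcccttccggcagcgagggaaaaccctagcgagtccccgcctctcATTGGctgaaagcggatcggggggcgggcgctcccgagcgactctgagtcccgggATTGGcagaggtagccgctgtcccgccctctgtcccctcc
Msmo1: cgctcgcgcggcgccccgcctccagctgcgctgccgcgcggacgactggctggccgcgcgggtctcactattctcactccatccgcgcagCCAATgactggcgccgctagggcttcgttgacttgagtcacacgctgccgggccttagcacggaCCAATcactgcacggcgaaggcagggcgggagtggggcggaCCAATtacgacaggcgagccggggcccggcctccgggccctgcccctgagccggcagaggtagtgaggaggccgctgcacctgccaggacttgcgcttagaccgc
Sc5d: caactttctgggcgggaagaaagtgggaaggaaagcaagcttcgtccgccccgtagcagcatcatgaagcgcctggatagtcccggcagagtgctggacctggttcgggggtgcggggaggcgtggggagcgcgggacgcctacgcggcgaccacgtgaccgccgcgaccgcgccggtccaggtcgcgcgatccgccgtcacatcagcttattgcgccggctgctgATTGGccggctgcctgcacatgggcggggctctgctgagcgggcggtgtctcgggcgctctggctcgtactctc
Soat1: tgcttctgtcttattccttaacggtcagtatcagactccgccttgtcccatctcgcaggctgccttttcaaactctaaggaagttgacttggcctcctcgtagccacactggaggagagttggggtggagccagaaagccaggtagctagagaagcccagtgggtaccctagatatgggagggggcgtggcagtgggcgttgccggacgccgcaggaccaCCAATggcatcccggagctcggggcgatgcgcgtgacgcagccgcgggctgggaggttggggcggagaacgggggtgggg

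In the Srebf2 window the shorter form of the core lies at -162 and the CCAAT box at -135 from the start. In the Hmgcs1 window the longer core lies at -137 among 4 CCAAT boxes. Msmo1 holds 3 CCAAT boxes and no core, and Sc5d and Soat1 hold 1 CCAAT box each and no core. The genes whose windows are shown all hold a CCAAT box but did not share a direction: Srebf2 fell, Soat1, Sc5d and Msmo1 rose, and Hmgcs1 did not pass the test. The rest of the 19 members with a CCAAT box did not pass or were not tested.

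In the mevalonate arm, Fdps and Acat2 fell. Fdps encodes the synthase that makes farnesyl diphosphate, the branch point between isoprenoids and sterols (chr3:89093588-89101959, minus strand). It had 19.4, 19.1 and 13.1 CPM in Ctrl and 5.49, 6.65 and 6.71 CPM in LIP. Each LIP library held less than the lowest Ctrl library, and the log2 fold change was -1.45 (SE 0.267, adjusted p = 0.00108), the largest fall among the 24 genes. Acat2, the cytosolic thiolase that joins acetyl-CoA units in the first step (chr17:12942890-12960747, minus strand), was the most abundant of this arm per gene length. Its libraries held 26.1, 20.9 and 14.2 CPM in Ctrl and 9.81, 9.78 and 12.2 CPM in LIP, without overlap though the closest pair was near. Its log2 fold change was -0.95 (SE 0.268, adjusted p = 0.0128), and without Ctrl replicate 1 the adjusted p was 0.0615.

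The remaining 4 mevalonate genes tested did not pass. Hmgcs1 encodes HMG-CoA synthase, Pmvk phosphomevalonate kinase, Mvd mevalonate diphosphate decarboxylase, and Idi1 the isomerase of isopentenyl diphosphate. Their log2 fold changes ran from -0.44 for Hmgcs1 to 0.44 for Mvd, with Pmvk at 0.31 and Idi1 at 0.07. The Mvd libraries did not overlap (6.99 to 10.50 CPM in Ctrl, 10.55 to 14.0 CPM in LIP), at an adjusted p of 0.191. Mvk, mevalonate kinase, was not tested: its reads numbered 3, 176 and 73 in Ctrl and 7, 8 and 226 in LIP. Summed over the 7 genes, the arm held 77.3 ± 8.65 CPM in Ctrl and 58.7 ± 4.72 CPM in LIP (SD, n = 3 each).

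In the sterol arm, Sc5d and Msmo1 rose. Sc5d, a sterol desaturase that acts near the end of the pathway (chr9:42251595-42264256, minus strand), had 35.5, 23.9 and 32.4 CPM in Ctrl and 47.4, 67.5 and 79.9 CPM in LIP. All 3 LIP libraries exceeded all 3 Ctrl libraries, with a wide spread in LIP. The log2 fold change was 1.09 (SE 0.216, adjusted p = 0.00179). Msmo1, a methylsterol monooxygenase that acts in the removal of methyl groups from sterol intermediates (chr8:64718139-64733792, minus strand), ranged from 13.6 to 18.1 CPM in Ctrl and from 28.6 to 32.7 CPM in LIP. Its log2 fold change was 0.91 (SE 0.195, adjusted p = 0.00284).

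Ebp, the sterol isomerase that shifts a ring double bond, was the most abundant of the sterol arm per gene length, with a mean FPKM of 9.56. Its libraries held 21.0, 22.8 and 17.6 CPM in Ctrl and 26.9, 29.5 and 26.9 CPM in LIP. The LIP libraries were all above Ctrl, but the log2 fold change of 0.44 did not pass (SE 0.186, adjusted p = 0.0679). Sqle, squalene epoxidase, a known control point of the pathway, went the other way, from 7.13 to 9.91 CPM in Ctrl and from 1.91 to 6.11 CPM in LIP. It too missed the threshold (log2 fold change -1.07, SE 0.424, adjusted p = 0.0535) and passed it under 8 of 15 alternatives, among them DESeq2 (adjusted p = 0.0365) and the fit without LIP replicate 1 (adjusted p = 0.0100).

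For the other sterol genes tested the groups overlapped. Fdft1, squalene synthase, had a log2 fold change of -0.49, Cyp51, which removes the first methyl group of lanosterol, -0.33, and Nsdhl, a dehydrogenase that follows Msmo1, 0.14. The wide interval of Fdft1, from -1.52 to 0.54, leaves its direction unknown. It overlaps Ctsb, a far more abundant gene with a mean FPKM of 94.5, by 774 bases on the other strand, and Cyp51 overlaps Akap9 by 166 bases, so reads in those stretches are uncertain. Lss (lanosterol synthase), Hsd17b7 (a reductase of the demethylation steps) and Dhcr7 (a reductase of the last steps) were below a mean FPKM of 1 and were not tested. Together the 10 sterol genes held 117.2 ± 3.43 CPM in Ctrl and 158.0 ± 10.2 CPM in LIP (SD, n = 3 each). Sc5d alone had means of 30.6 CPM in Ctrl and 64.9 CPM in LIP. In deposited FPKM, which carry no TMM factors, the sums overlapped, at 28.7 to 30.8 in Ctrl and 30.3 to 33.6 in LIP.

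Summed over the 17 enzymes listed, counts were 186 to 205 CPM in Ctrl and 202 to 227 CPM in LIP, and the groups overlapped. On the FPKM scale as deposited, without TMM factors, the same sum was 53.2 to 61.1 in Ctrl and 48.7 to 53.0 in LIP, so the direction of the sum depends on the scaling. The sum is not the whole pathway, since it leaves out the further synthesis genes described below. Of these, Lbr alone had 226, 141 and 205 CPM in Ctrl and 328, 357 and 437 CPM in LIP, whereas Acat1 was lower in LIP. Against Srebf2 in the same library, a ratio that needs no scaling, the enzyme sum was 2.30, 1.95 and 1.88 in Ctrl and 5.39, 4.76 and 4.43 in LIP. Each LIP ratio thus exceeded each Ctrl ratio, with means of 2.04 and 4.86. This holds for the sum, to which Ebp and Sc5d contributed most over the 6 libraries, and not for each enzyme: Fdps had a larger fall than Srebf2 (log2 fold change -1.45 against -1.10).

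Of the LXR genes, Nr1h2 (LXRβ, the form made in most tissues, chr7:44549616-44553949, minus strand) was abundant and did not pass the test. It had 77.0, 76.0 and 83.3 CPM in Ctrl and 107, 78.5 and 108 CPM in LIP. A pair of LIP libraries stood above Ctrl and the remaining one lay among the Ctrl values. Its log2 fold change was 0.31 (SE 0.144, adjusted p = 0.0913), and without LIP replicate 2 the adjusted p was 0.0220. Nr1h3 (LXRα, the form prominent in liver and macrophages) was not tested, with 60, 49 and 49 reads in Ctrl and 0, 213 and 76 reads in LIP. Its reads were few and uneven among the LIP libraries, and its mean FPKM was 0.495, against 24.2 for Nr1h2.

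The efflux genes, both known LXR targets, moved in opposite directions. Abca1, the pump that loads cholesterol onto lipid-free apolipoprotein (chr4:53030787-53159895, minus strand), had 53.0, 41.4 and 44.8 CPM in Ctrl and 33.5, 19.0 and 18.6 CPM in LIP. All LIP libraries were below Ctrl, LIP replicate 1 least so. The log2 fold change was -0.97 (SE 0.240, adjusted p = 0.00634). Abcg1, which passes cholesterol to high-density lipoprotein (chr17:31057675-31117988, plus strand), had the highest mean FPKM of the list, 27.1. Its libraries held 185, 206 and 165 CPM in Ctrl and 228, 260 and 248 CPM in LIP. The LIP libraries were above Ctrl, with a log2 fold change of 0.40 (SE 0.115, adjusted p = 0.0134), the smallest of the 9 calls. It did not pass with library totals (log2 fold change 0.08, adjusted p = 0.549), in limma on log2(FPKM + 1) or log2(FPKM + 0.1) (0.09 and 0.10, adjusted p = 0.515 and 0.514), when the filter was a mean FPKM of 5 (adjusted p = 0.0774), nor without Ctrl replicate 3 (adjusted p = 0.0677) or LIP replicate 2 (adjusted p = 0.0516), and it turned to -1.48 with scaling on neutrophil genes. Within each library, Abcg1 exceeded Abca1 in FPKM 4.96, 7.07 and 5.24 times in Ctrl and 9.68, 19.4 and 18.9 times in LIP. Hence the balance of the transporters differed between groups in every library, whichever scaling is used.

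Soat1, the enzyme that esterifies cholesterol for storage in droplets (chr1:156424525-156474331, minus strand), rose the most of the 24 genes. It had 40.0, 39.3 and 46.7 CPM in Ctrl and 112, 119 and 116 CPM in LIP. The groups were far apart and the spread within each was small. The means were 42.0 ± 4.13 and 115.6 ± 3.09 CPM (SD, n = 3 each), and the log2 fold change was 1.46 (SE 0.124, adjusted p = 5.00e-06). Relative to Srebf2 in the same library its FPKM was 0.161, 0.135 and 0.173 in Ctrl and 1.05, 0.908 and 0.839 in LIP. The mean ratio was 5.96-fold higher in LIP.

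The lysosomal exporters did not pass the test. Npc1, the membrane protein that moves cholesterol out of the lysosome, had 25.0, 20.1 and 27.4 CPM in Ctrl and 33.9, 23.5 and 21.9 CPM in LIP. Npc2, the soluble protein that hands cholesterol to it, had 79.4, 114 and 86.5 CPM in Ctrl and 102, 120 and 108 CPM in LIP. Both overlapped between groups, with 95% intervals of the log2 fold change from -0.37 to 0.62 for Npc1 and from -0.10 to 0.57 for Npc2. Npc1 overlaps Rmc1 by 967 bases on the other strand.

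**Figure D4:**
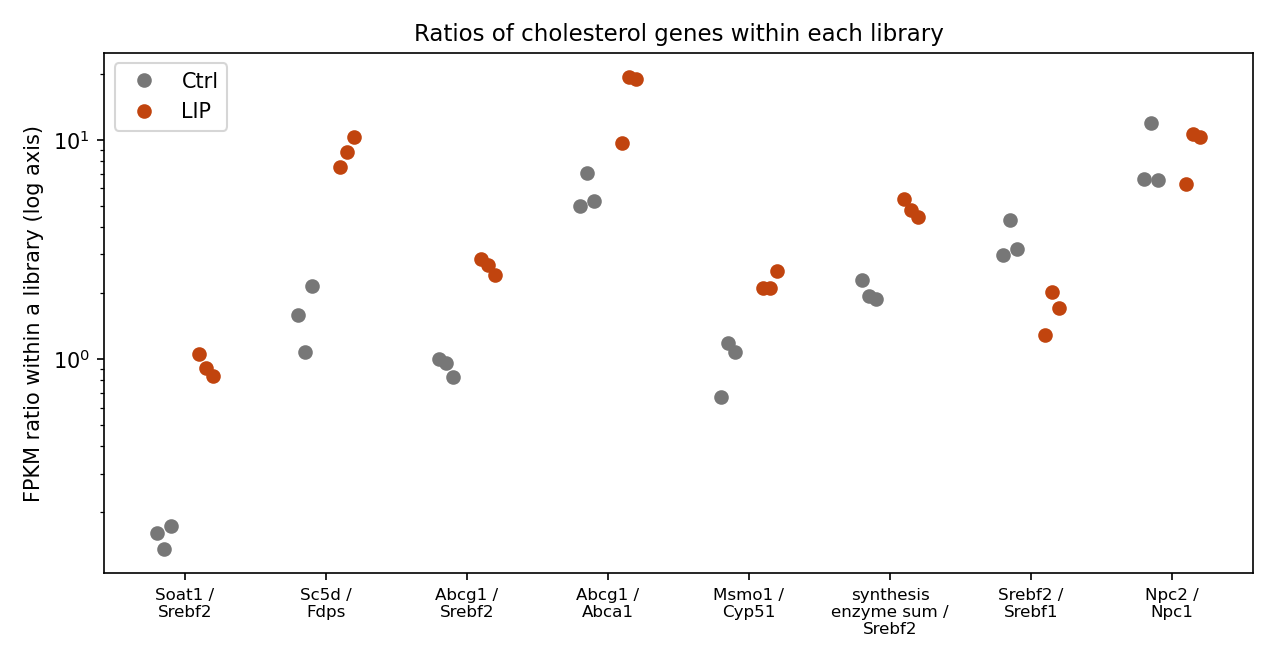
Ratio of the FPKM of 2 cholesterol genes, or of the 17 synthesis enzymes summed and Srebf2, within each library (y axis, log scale) for 8 pairs chosen after the values were seen (x axis). Points are libraries, grey for Ctrl and red for LIP, and a ratio within a library does not depend on how libraries are scaled. Soat1 over Srebf2 (means 0.156 and 0.933) and Sc5d over Fdps (means 1.603 and 8.88) differ most, and Npc2 over Npc1 overlaps between groups.

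The ratios within a library were chosen after the values were seen and describe how unequally the genes moved. The ratio of Sc5d to Fdps was 1.59, 1.08 and 2.14 in Ctrl and 7.497, 8.81 and 10.3 in LIP, a 5.54-fold higher mean. For Msmo1 against Cyp51, enzymes that act close to each other in the pathway, it was 0.673, 1.18 and 1.07 in Ctrl and 2.11, 2.10 and 2.53 in LIP. In both pairs the transcripts stood in other proportions in LIP than in Ctrl libraries. Sc5d and Fdps had the largest rise and the largest fall among the synthesis enzymes tested, so their choice itself favoured a separation.

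Other genes of sterol metabolism were taken from 6 lists of 43 genes, of which 32 were tested. After TMM 14 were higher and 5 lower in LIP, beside 26.5% and 27.2% of all genes tested. With library totals 6 were higher and 9 lower, and with scaling on neutrophil genes 0 were higher and 29 lower. Genes of uptake and storage gave 7 higher and 0 lower of 10 after TMM, from a list chosen with earlier results of these data known. Soat2, the second esterifying enzyme, had 4.27, 3.52 and 3.70 CPM in Ctrl and 17.0, 22.6 and 20.3 CPM in LIP (log2 fold change 2.38, SE 0.258, adjusted p = 2.85e-05). Thus both esterifying genes were higher in every LIP library, Soat2 from a low level. The other 6 were Lamp2, Msr1, Lrp1, Lipa, Lamp1 and Stard3, which encode lysosomal membrane proteins, lipoprotein receptors, the lysosomal lipase that frees cholesterol from its esters and a sterol carrier, with log2 fold changes from 0.49 to 1.62. The Stard3 libraries overlapped, and with no filter on low genes its adjusted p was 0.109. Sterol transfer genes gave 2 higher and 0 lower of 3, led by Osbpl9 (log2 fold change 1.24, SE 0.144, adjusted p = 4.90e-05), an oxysterol-binding protein relative.

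The machinery that moves, cuts and degrades SREBP and its partners gave 2 higher and 2 lower of 7. Mbtps1, the Golgi protease that makes the first cut in SREBP, fell by 0.63 on the log2 scale (SE 0.213, adjusted p = 0.0293), and Sec24b, a coat protein of the vesicles that leave the endoplasmic reticulum, rose by 0.56 (SE 0.175, adjusted p = 0.0201). Of 4 genes around LXR, Rxra, the partner receptor, was higher (log2 fold change 0.76, SE 0.288, adjusted p = 0.0462), while Mylip, a known LXR target, did not pass (-0.33, adjusted p = 0.202). Among 3 further synthesis genes, Lbr, a sterol reductase and nuclear envelope protein, was higher (0.97, SE 0.174, adjusted p = 0.000890) and Acat1, the mitochondrial thiolase, was lower (-1.05, SE 0.296, adjusted p = 0.0127). With no filter on low genes the calls of Mbtps1 (adjusted p = 0.0997), Sec24b (0.0580), Rxra (0.0900) and Acat1 (0.0592) were lost, and that of Lbr held.

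Fatty acid genes known as SREBP1 targets gave 1 higher and 2 lower of 5. Scd1, the stearoyl-CoA desaturase, had 142, 91.1 and 114 CPM in Ctrl and 24.5, 16.4 and 22.1 CPM in LIP (log2 fold change -2.46, SE 0.204, adjusted p = 4.16e-06). Its LIP libraries lay far below Ctrl, although Srebf1 itself did not pass the test. Fasn, fatty acid synthase, fell by 0.95 (SE 0.337, adjusted p = 0.0349), but its libraries overlapped (19.2 CPM in the highest LIP and 18.6 CPM in the lowest Ctrl library) and the call was lost with no filter on low genes (adjusted p = 0.126). Acss2, which makes acetyl-CoA from acetate, rose by 0.80 (SE 0.183, adjusted p = 0.00402).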

How the data were processed

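CD45+CD11b+Ly6G+ PB neutrophils of 3 Ctrl and 3 LIP pools were profiled with Smart-seq2, in which mRNA is primed with oligo(dT), copied to cDNA, amplified by PCR and sequenced paired-end on an Illumina NovaSeq, without molecular identifiers, so that several reads can stem from 1 molecule. Raw counts of reads on each gene, not normalized, were deposited by the authors. The authors also deposited FPKM values, which scale counts to gene length and library total. The submitters' processing notes name cutadapt 1.9, FastQC and GRCm38. The aligner, the counting tool and the use of strand are not given in the sources used here, so reads shared by overlapping genes are uncertain. Groups came from the sample labels. Where a gene name occurs on several rows (50 names), the row of larger mean FPKM stood for it.

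The 10440 of 29097 genes whose mean FPKM reached 1 were tested on counts with edgeR 4.0.16 (R 4.3.3, quasi-likelihood F test, TMM, no replicate block, Benjamini-Hochberg over all genes tested, threshold 0.05). CPM are TMM-normalized. SE is the size of the log2 fold change over the square root of F, and intervals are 95%. Alternatives were library totals, median-of-ratios factors, scaling on neutrophil markers, TMM without haemoglobin and antigen receptor genes, DESeq2 1.42.0, limma 3.58.1 on log2(FPKM + 1) and log2(FPKM + 0.1), no filter, a mean FPKM of at least 5, the replicate block, and each library left out. The test was tried on simulated counts with few genes changed, equally up and down, so that trial does not bear on the scaling. Chi-square per gene between libraries of a group was 51.9 to 126, so no pair agreed within sampling noise. The members and lists were chosen with earlier results of these data known. All members are named, with values per library for those called with an absolute log2 fold change of at least 1, for the most abundant of each role and for all outside the synthesis arms, and of each other list the most changed called gene in each direction. Of Msmo1, Sqle and Mvd, values were added after they were seen, as were the further names from the other lists. Promoter windows are RefSeq's. Some single genes are not reported here.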

Additional observations from a re-analysis of the deposited data

How the results depend on the processing

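Fdps, Srebf2, Abca1, Msmo1, Sc5d and Soat1 passed the threshold with any 1 library left out. Scaling on neutrophil genes gave 0 members higher and 24 lower (13 and 11 of the synthesis and other members lower, 0 and 0 higher), 0 and 29 of the companion sterol genes, and 43 and 9357 of all genes. Under it the log2 fold change turned negative for Pmvk (-1.58), Mvd (-1.43), Idi1 (-1.82), Msmo1 (-0.97), Nsdhl (-1.73), Ebp (-1.45), Sc5d (-0.80), Insig1 (-1.52), Nr1h2 (-1.57), Abcg1 (-1.48), Soat1 (-0.42), Npc1 (-1.75) and Npc2 (-1.64). Library totals, limma with a pseudocount of 1 and limma with 0.1 turned these members that did not pass: Pmvk (-0.010, -0.041, -0.060), Idi1 (-0.25, -0.12, -0.15), Nsdhl (-0.18, -0.16, -0.24), Nr1h2 (-0.0097, -0.010, -0.011), Npc1 (-0.19, -0.13, -0.18) and Npc2 (-0.083, -0.055, -0.057), and the last turned Insig1 (-0.0087). Each of these 3 fits called 1 of the members outside the synthesis arms higher, and 6, 5 and 5 companion genes higher and 9, 9 and 9 lower. A mean FPKM of at least 5 left 10 members, 2 higher and 2 lower (1 and 1 in each part), 6 companion genes higher and 3 lower, and 1768 and 1869 of all genes, since fewer genes were tested. With no filter 1 companion gene was lower. The cause of the other shifts was not tested.

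With each library left out, 3 to 5 members were lower (3 without Ctrl replicate 1), 1 to 3 synthesis enzymes lower, 1 to 3 other members higher and 2 to 6 companion genes lower. The log2 fold change crossed 0 for Pmvk (-0.013 to 0.58), Idi1 (-0.18 to 0.36), Nsdhl (-0.27 to 0.42), Srebf1 (-0.12 to 0.062) and Npc1 (-0.090 to 0.25), none of which passed in any of these fits. Where a group keeps 2 libraries, its spread is partly borrowed from the other.

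Same-numbered libraries come from different mice and share only a number (correlation of their deviations 0.0212, 0.0562 and 0.0364). The replicate block gave 4 members higher and 6 lower, Sqle being added (-1.20, adjusted p = 0.0385). Depth limits the members with few reads, Mvk, Lss, Hsd17b7, Dhcr7 and Nr1h3, and pools hide the spread between mice.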

Other observations

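The 5 members below a mean FPKM of 1 were fitted without a filter on low genes, and none passed. Lss, lanosterol synthase, had 307, 228 and 409 reads in Ctrl and 250, 33 and 76 reads in LIP (log2 fold change -1.12, edgeR adjusted p = 0.330). Hsd17b7 had 272, 369 and 188 reads in Ctrl and 206, 19 and 115 in LIP (-0.99, adjusted p = 0.392). Dhcr7 had 139, 299 and 286 reads in Ctrl and 171, 81 and 186 in LIP (-0.42, adjusted p = 0.597). For all of these, at least 1 LIP library lay among the Ctrl libraries. Mvk (0.29, adjusted p = 0.931) and Nr1h3 (1.17, adjusted p = 0.600) varied more within LIP than between groups. All 29 members together took 0.104% to 0.108% of counts in Ctrl and 0.0867% to 0.0937% in LIP, shares without TMM factors.

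By mean FPKM over the 6 libraries, some of the transport and regulator genes led the list. These were Abcg1 (27.1), Nr1h2 (24.2), Srebf2 (19.5) and Npc2 (17.3), above 85.6%, 84.1%, 80.7% and 78.5% of all genes tested. Others of that group lay far lower, among them Abca1 (3.26), Npc1 (2.07) and Nr1h3 (0.495, not tested). Of the synthesis enzymes Ebp (9.56) and Sc5d (8.80) came highest, above 66.5% and 64.3%, and Sqle (1.08) was lowest among those tested, above 2.38%.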
